A study of Mus musculus with 9 samples.

Results

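Cytoplasmic ribosomal protein genes were examined in a list of accessible chromatin regions from the wild-type mouse embryonic heart field. A region was taken as a member when the symbol of the gene assigned to it followed the naming of cytoplasmic ribosomal proteins (Rps, Rpl or Rplp, a number and at most 1 further letter). There were 52 such regions among 17164 distinct regions in the list, and they carried 49 of the 11541 gene symbols. Of these 49 symbols, 46 are core ribosomal protein genes and 3 are paralogs, namely Rpl10l, Rps27l and Rps4l.

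The study profiled chromatin accessibility by ATAC-Seq, in which the transposase Tn5 inserts sequencing adapters into open DNA, in pharyngeal mesoderm and hearts dissected from mouse embryos at embryonic day 8.75 (6 somites). It comprised 9 libraries, 3 each from wild-type control embryos (wt), embryos lacking the LIM-homeodomain factor Isl1 (Isl1-/-) and embryos with floxed alleles of the chromatin remodeler Brg1 and 1 Isl1-Cre allele (Isl1Cre+/-/ Brg1fl/fl), and asked whether chromatin opening depends on Isl1 and Brg1. In the last genotype Cre is expressed from the Isl1 locus, so deletion is limited to cells that have expressed Isl1, and these embryos also carry an altered Isl1 allele. The values used here were those of the wild-type control alone, as 1 list of regions that overlapped in the 3 libraries. The list gives positions and assigned genes and holds no signal for any single library. The other genotypes were not analysed here. No expression was measured in these libraries, so the tissue label was not checked against marker genes. Read depth was unknown, no spread between replicates could be given, and no test between samples was possible. The 95% intervals below are Wilson intervals and cover counting error over genes or regions only, and genes are not independent replicates.

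The cytoplasmic ribosome consists of a small subunit, which decodes the mRNA, and a large subunit, which joins amino acids and holds the nascent chain. Their proteins are encoded by genes scattered over the genome that are expressed in nearly every cell, in near-equal amounts, and at high levels in growing embryonic tissue. Most of their mRNAs begin with a C followed by a run of pyrimidines, the terminal oligopyrimidine (TOP) motif, through which mTOR signaling controls their translation. Many ribosomal protein genes also carry snoRNAs in their introns and have given rise to processed pseudogenes elsewhere in the genome.

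Sequence around the starts is shown first, because the rest of the description rests on where those starts lie. For each of 79 core genes (32 of the small and 47 of the large subunit) 1 representative start was taken from the GENCODE annotation. Its build, NCBIM37, is the same as mm9. This start can differ from the one implied by the deposited distances, so a searched window can miss the latter. For Rpl21 the representative start was at 147644771 and the deposited one at 147644466.5, and for Rpl35 at 38861144 and 38860651.5. A TOP-like start was defined as a C followed by at least 4 pyrimidines that begins within 5 bases of this start on the gene strand. Such a run was found in 20 of the 79 genes (25.3%, interval 17.0 to 35.9%), beside 17.9% of 22381 coding genes. The lines below give 60 bases before the start and the first 30 bases from the start on, 5′ to 3′, with the run in capitals. They show Rpl22, Rpl13a, Rpl14 and Rpl18, which had runs of 10 or more bases, though not the longest of all, which is not shown, followed by Rplp1 of the acidic stalk and Rps27 of the small subunit, each with a run of 9 bases.
Rpl22 (chr4:151699902-151699991, plus strand): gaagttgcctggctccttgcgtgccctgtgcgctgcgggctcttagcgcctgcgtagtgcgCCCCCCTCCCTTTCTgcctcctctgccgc
Rpl13a (chr7:52384089-52384178, minus strand): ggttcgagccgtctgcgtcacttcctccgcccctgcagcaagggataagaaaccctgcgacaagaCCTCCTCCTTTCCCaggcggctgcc
Rpl14 (chr9:120480572-120480661, plus strand): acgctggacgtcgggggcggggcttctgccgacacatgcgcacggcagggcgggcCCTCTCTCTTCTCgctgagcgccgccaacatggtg
Rpl18 (chr7:52973381-52973470, plus strand): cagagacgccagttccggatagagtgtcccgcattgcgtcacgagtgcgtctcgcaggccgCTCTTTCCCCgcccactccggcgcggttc
Rplp1 (chr9:61762316-61762405, minus strand): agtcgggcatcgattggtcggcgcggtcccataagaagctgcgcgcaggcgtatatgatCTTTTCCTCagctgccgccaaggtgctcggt
Rps27 (chr3:90017544-90017633, minus strand): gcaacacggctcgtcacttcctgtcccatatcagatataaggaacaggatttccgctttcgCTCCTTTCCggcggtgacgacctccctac

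The runs were 15 bases long in Rpl22, 14 in Rpl13a, 13 in Rpl14 and 10 in Rpl18. In Rpl14 the base before the capitals is also a C. It lies outside the 5 bases searched before the start, so the run was counted and marked without it. Rpl22 and Rpl14 each had an accessible region over the start that was assigned to that gene, while Rpl13a and Rplp1 had none at a start. A TOP-like start was present in 15 of 49 genes with a start in a region (30.6%, interval 19.5 to 44.5%) and in 5 of 30 without (16.7%, interval 7.34 to 33.6%), and these intervals overlap. The share differed between the sets of starts used, which also differ in the genes covered and in the number of starts per gene. With the promoters of the RefSeq table (assembly GRCm38.p6), which held 68 promoters of 58 of the 79 genes, 44.1% had a TOP-like start, beside 18.8% of 20487 promoters of coding genes. A run beginning exactly at the RefSeq start was found in 14 of the 68 promoters (20.6%, interval 12.7 to 31.6%), beside 2.23% of all. At the GENCODE start itself the share was 3.80%, beside 2.04%.

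Among 7 short motifs searched on both strands from 250 bases before to 50 bases after the start, TCGCGAGA differed most from the background in ratio. It was present in 12 of the 79 ribosomal protein promoters (15.2%, interval 8.91 to 24.7%) and in 1.38% of all coding promoters of the same length. Mitochondrial ribosomal protein promoters held it in 2 of 78 cases (2.56%). The lines below give 120 bases before to 30 bases from the start on in 5 of the 12 genes, with each occurrence on either strand in capitals. They were picked to show positions from the start itself to farther upstream.
Rps6 (chr4:86503287-86503436, minus strand): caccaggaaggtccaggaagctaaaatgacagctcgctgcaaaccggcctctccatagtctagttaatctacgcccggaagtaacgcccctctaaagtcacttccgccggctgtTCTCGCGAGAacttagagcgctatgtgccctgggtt
Rps28 (chr17:33961478-33961627, minus strand): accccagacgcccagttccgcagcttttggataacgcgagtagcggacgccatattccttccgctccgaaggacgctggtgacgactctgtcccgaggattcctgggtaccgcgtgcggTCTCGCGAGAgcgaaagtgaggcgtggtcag
Rps15a (chr7:125259671-125259820, minus strand): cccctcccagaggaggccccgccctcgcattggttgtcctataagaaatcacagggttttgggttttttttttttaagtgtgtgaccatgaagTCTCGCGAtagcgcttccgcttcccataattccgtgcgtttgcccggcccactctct
Rpl26 (chr11:68714965-68715114, plus strand): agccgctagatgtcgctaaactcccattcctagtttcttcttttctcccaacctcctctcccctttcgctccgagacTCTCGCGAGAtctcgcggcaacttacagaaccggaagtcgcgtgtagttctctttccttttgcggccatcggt
Rpl23a (chr11:77997057-77997206, minus strand): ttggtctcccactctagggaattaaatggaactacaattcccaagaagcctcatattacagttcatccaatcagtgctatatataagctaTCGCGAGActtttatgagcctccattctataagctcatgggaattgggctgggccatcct

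In Rps6, whose protein is the phosphorylation target of S6 kinase, and in Rps28 the element spanned the start and occurred on both strands in an overlapping form. In Rps15a it began 27 bases before the start, in Rpl23a 30 and in Rpl26 43. Counting from its nearest occurrence, the element lay within 100 bases upstream of the start in 7 of the 12 genes. Rps3a, Rps6, Rps15a, Rps19, Rpl17 and Rpl27a were among those with a start inside an accessible region, and Rps28, Rpl7a, Rpl23a and Rpl26 among those without. The element thus occurred in 6 of 49 genes with a start in a region (12.2%, interval 5.73 to 24.2%) and in 6 of 30 without (interval 9.51 to 37.3%), and these intervals overlap. Among the 49, Rpl18 had only a start other than the searched one inside a region.

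The core of ETS-family sites, CCGGAAG, was found in 27 of the 79 promoters (34.2%, interval 24.7 to 45.2%), beside 11.0% of all coding promoters, and mitochondrial ribosomal protein promoters had a like share of 38.5%. It occurred in 12 of 49 genes with a start in a region (24.5%, interval 14.6 to 38.1%) and in 15 of 30 without (interval 33.2 to 66.8%), where the intervals overlap in part. On the gene strand alone it occurred in 7 of 49 (14.3%, interval 7.10 to 26.7%) and 14 of 30 (46.7%, interval 30.2 to 63.9%), where they do not overlap, beside 6.19% of all coding promoters. From 100 bases before to 50 after the start it occurred in 8 of 49 (16.3%, interval 8.51 to 29.0%) and 13 of 30 (43.3%, interval 27.4 to 60.8%). There the intervals overlap by a small margin, and the share of all coding promoters was 8.41%. The difference was not tested. AAGATGGC, a YY1 motif, was present in 8.86% of the ribosomal protein promoters, beside 3.39% of all. The Sp1 motif GGGCGG (54.4%, interval 43.5 to 65.0%, beside 44.5%), CCAAT (30.4%, beside 37.9%), TATAAA (11.4%, beside 13.4%) and the NRF1 motif GCGCATGC (3.80%, beside 3.39%) were close to the background. These are matches of letters, and no binding was measured.

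The accessible regions of ribosomal protein genes lay mostly at promoters. Of the 52 regions, 44 were centered at most 1 kb from the transcription start site (TSS) of the assigned gene. Each of the 44 belonged to a different gene, 42 of them core genes and 2 paralogs, and contained that TSS. The share of all promoter regions that contain their assigned TSS is not given here. The other 8 regions (15.4%, interval 8.01 to 27.5%) lay beyond 1 kb, whereas 47.1% of all 17164 regions did. A single region was assigned to 46 of the 49 symbols (93.9%, interval 83.5 to 97.9%), beside 73.2% of all symbols. The regions lay on 19 chromosomes, with 4 on X, those of Rpl10, Rpl36a, Rpl39 and Rps4x.

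Coverage of the 79 core genes was above that of coding genes in general. An assigned region at any distance was present for 48 genes (60.8%, interval 49.7 to 70.8%), compared with 49.3% of 21027 coding genes. A region within 1 kb of the TSS was present for 44 genes (55.7%, interval 44.7 to 66.1%), compared with 40.6%. These are the 42 core genes above together with Rpsa, whose symbol does not follow the naming rule, and Rps3a, which the list carries as Rps3a1 and the rule therefore missed. Since each region was given to 1 gene, starts were also overlapped with the regions directly, whatever gene they were assigned to. By that measure 49 of the 79 genes (62.0%, interval 51.0 to 71.9%) had a start inside a region, compared with 43.7% of 22381 coding genes. The small subunit (20 of 32 genes, 62.5%) and the large subunit (29 of 47 genes, 61.7%) were alike.

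Coding genes with a CpG content like that of the ribosomal protein genes had a region more often than coding genes in general. The 79 starts had a median of 6.89 CpG per 100 bp within 500 bp on either side, beside 4.10 for all coding genes. Among the 3397 coding genes within the quartile range of the ribosomal protein genes (5.99 to 7.69 CpG per 100 bp), 71.2% had a start inside a region. Of the 79 genes, 41 were in that range and 28 of them had a start inside a region. Other lists of the translation machinery had shares of the same order or higher. A start inside a region was present for 58 of 78 mitochondrial ribosomal protein genes (74.4%, interval 63.7 to 82.7%), for 17 of 22 ribosome biogenesis genes (77.3%, interval 56.6 to 89.9%) and for 14 of 18 elongation factors and other TOP mRNA genes (77.8%, interval 54.8 to 91.0%). The intervals of all these lists overlap that of the ribosomal protein genes. Of the biogenesis genes, Fbl (fibrillarin), Rrn3, Polr1c, Ubtf and Tsr1 had no region at a start, and of the TOP mRNA genes Eef1d, Eef2, Btf3 and Hnrnpa1 had none. Among 9 paralogs of core proteins, Rpl22l1, Rpl36al, Rps27l and Rps4l had a start inside a region, and Rpl3l, Rpl7l1, Rpl10l, Rpl39l and Rps27rt had not.

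**Figure D1:**
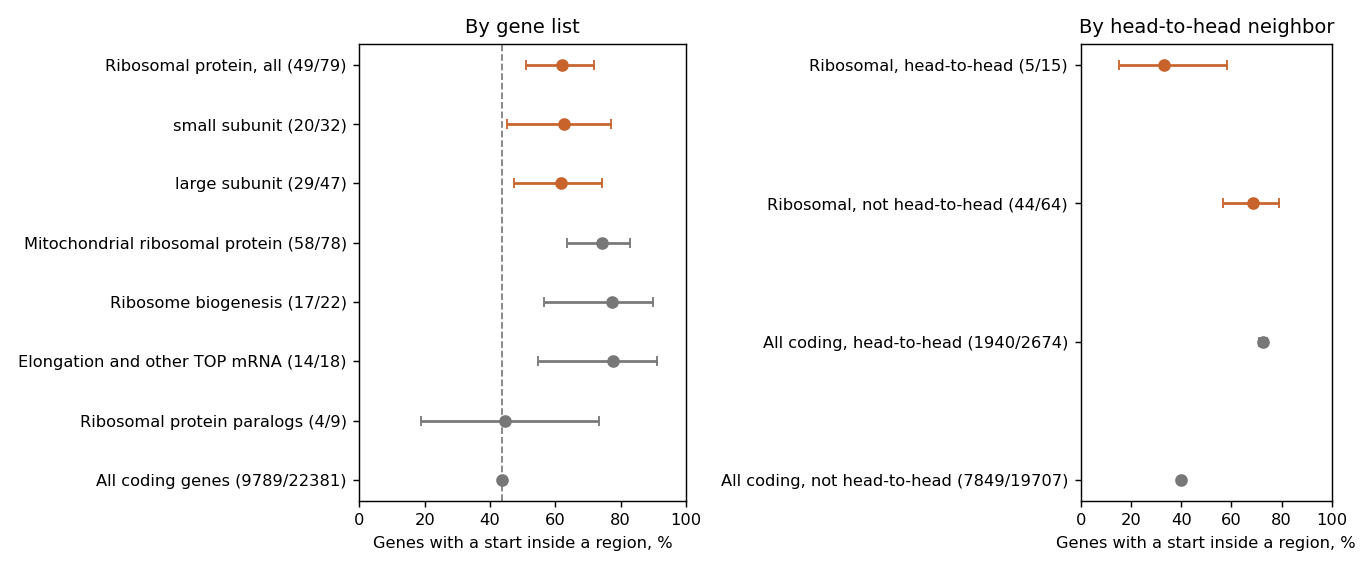
Percent of genes with at least 1 annotated start inside an accessible region of the wild-type control, by gene list (left) and by presence of a head-to-head neighbor (right). Points are shares, bars are 95% Wilson intervals, counts stand in the labels and the dashed line marks the 43.7% of all coding genes. On the right, head-to-head genes have the higher share among all coding genes (72.6% against 39.8%) and the lower share among ribosomal protein genes (33.3% against 68.8%).

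By role, the small subunit genes with an assigned promoter region included Rps3 at the mRNA entry channel, Rps6, Rpsa (the laminin receptor precursor), Rps14 and Rps19, the gene most often mutated in Diamond-Blackfan anemia. The large subunit genes included Rpl5, which binds 5S rRNA, Rpl10, which joins the subunit late in its assembly, Rpl38 and Rplp0. The partner of Rpl5 in the 5S particle, Rpl11, had no region at a start. Within the acidic stalk, which recruits translation factors, Rplp0 and Rplp2 had a region and Rplp1 had none. Rps27a, which encodes a fusion with ubiquitin, had a region, and Fau, which encodes a fusion with a ubiquitin-like protein, had none.

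In 5 genes the start lay in a region that was assigned to another symbol. The start of Rps2 was inside the 1130 bp region of Snhg9, a snoRNA host gene on the opposite strand, and that of Rps27 inside the 1086 bp region of Rab13. Rpl7 shared the 2533 bp region of Rdh10, a retinol dehydrogenase gene, and the start of Rpl34 was inside the 1156 bp region assigned to Rpl34-ps1. For Rpl18 the region of Sphk2 (1174 bp) held 1 annotated start but not the representative one. The deposited assignment therefore left Rps2, Rps27, Rpl7 and Rpl18 with no region of their own, and gave Rpl34 a distal one only.

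No region lay at a start in 30 of the 79 genes, 12 of the small and 18 of the large subunit. In the small subunit these included Rps10, Rps15, Rps16, Rps18, Rps21, Rps25, Rps28, Rps29 and Fau. In the large subunit they included Rpl3, Rpl4, Rpl6, Rpl7a, Rpl8, Rpl10a, Rpl11, Rpl12, Rpl13a, Rpl15, Rpl19, Rpl23, Rpl23a, Rpl26, Rpl36, Rpl41 and Rplp1. The nearest region of any gene was 516 bp from a start in Rps18 and 189307 bp in Rpl6, with a median of 14938.5 bp (quartiles 6627 and 30578.5 bp). It was more than 10 kb away in 19 of the 30 genes. Rpl13a was among them, with the nearest region 17548 bp away. A missing region does not show closed chromatin, because a region had to be called in each of the 3 libraries.

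**Figure D2:**
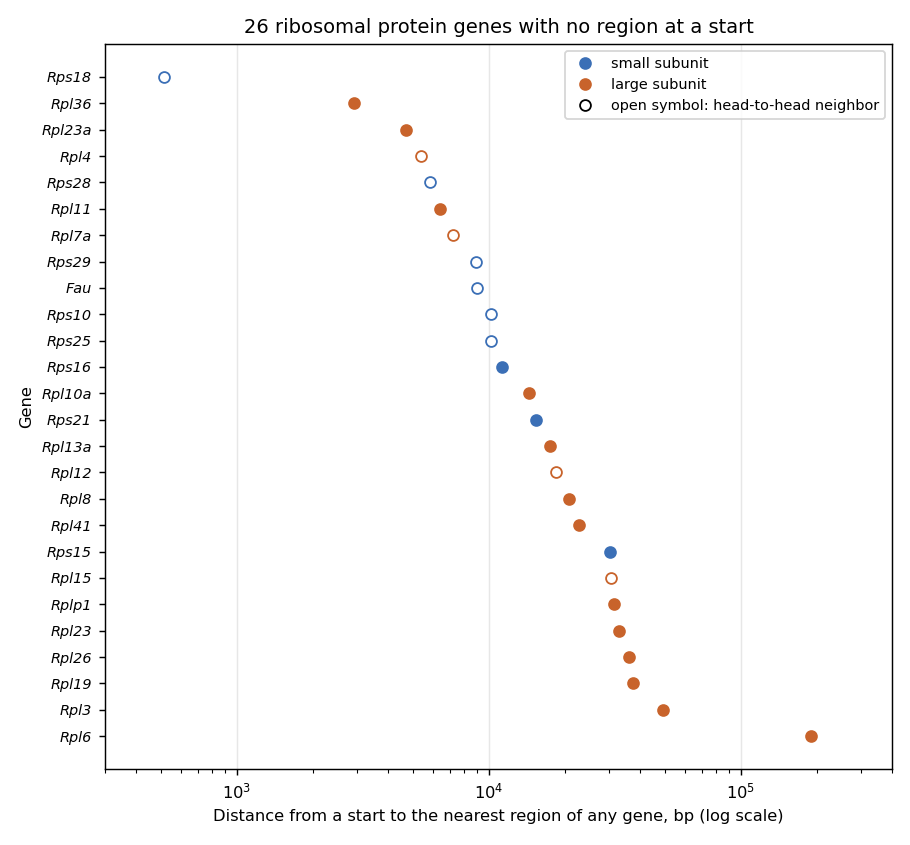
Distance from the closest annotated start to the nearest accessible region of any gene, in bp on a log scale, for 26 of the 30 ribosomal protein genes with no region at a start, colored by subunit; open symbols mark genes with a head-to-head neighbor. The distances run from 516 bp (Rps18) to 189307 bp (Rpl6).

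The genes with and without a region at a start had similar base composition there. The median was 6.79 CpG per 100 bp and 56.9% GC with a region, and 6.89 CpG per 100 bp and 58.6% GC without. Repeated sequence, measured as the percent of 31-mers that occur more than once in the genome, had medians of 4.84% and 6.54%. Intronic snoRNAs were present in 20 of the 49 genes with a region and in 10 of the 30 without. Mean CpG frequency in the 50 bp bin just upstream of the start was 9.31 per 100 bp with a region and 9.40 without, beside 6.35 over all coding genes.

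**Figure D3:**
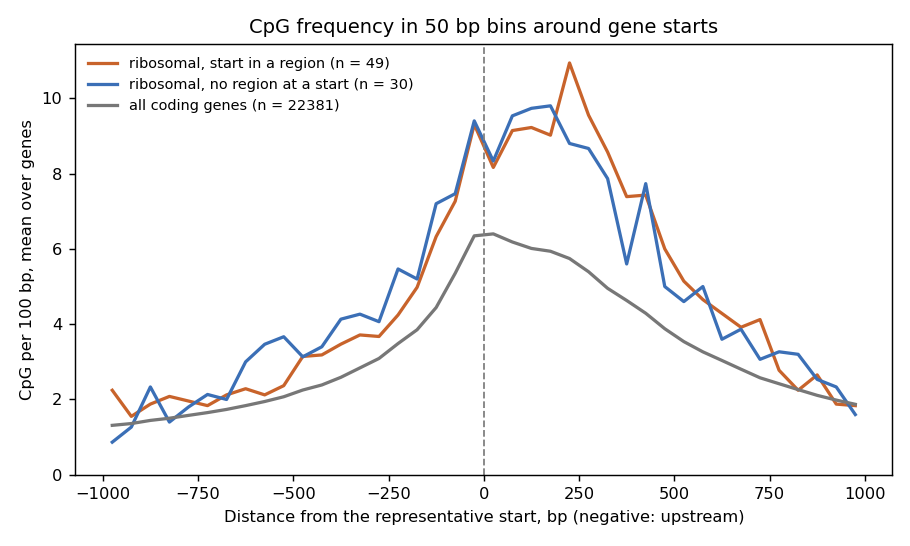
Mean CpG per 100 bp in 50 bp bins from 1 kb upstream to 1 kb downstream of the representative start, for ribosomal protein genes with a start in a region (n = 49), for those without (n = 30) and for all coding genes (n = 22381). Both ribosomal protein profiles exceed 9 CpG per 100 bp in the bin just upstream of the start, and the profile of all coding genes stays below 7.

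The arrangement of neighboring genes was also compared. A head-to-head neighbor, defined after the values had been seen, was a start of another gene that is no pseudogene, on the opposite strand, from 100 bp inside to 1 kb upstream of the representative start. Such a neighbor was present in 15 ribosomal protein genes (19.0%, beside 11.9% of coding genes). Of these 15, 5 had a start inside a region (33.3%, interval 15.2 to 58.3%), against 72.6% of the 2674 head-to-head coding genes. The order was the opposite without such a neighbor, where 44 of 64 ribosomal protein genes (68.8%, interval 56.6 to 78.8%) had a start inside a region, against 39.8% of 19707 coding genes. The 5 with a region were Rps2, Rps27, Rpl9, Rpl18 and Rpl35a. In Rpl18 the start inside a region was not the representative one, which lies 69 bp from Sphk2 and has no region over it. The 10 without were Rps18 (95 bp from the start of Vps52), Rps25 (166 bp from Trappc4), Rps28 (29 bp from Ndufa7), Fau (135 bp from Mrpl49), Rpl4 (283 bp from Zwilch), Rpl7a (87 bp from Med22), Rpl15 (69 bp from Nkiras1), Rpl12 (a 55 bp overlap with Lrsam1), and Rps10 and Rps29 with noncoding neighbors. With coding neighbors only, 4 of 12 had a start inside a region. The intervals of the 15 and the 64 genes overlap by a small margin, and the difference was not tested.

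At the 44 promoters the regions were narrower than at promoters in general. Their median width was 1102 bp (95% interval of the median 1003 to 1216 bp, from order statistics), beside 1294 bp (1284 to 1304 bp) for all 9083 regions within 1 kb of a TSS. The quartiles were 979 and 1295 bp, beside 1084 and 1612.5 bp. None of the 44 regions reached 2000 bp, whereas 906 of all promoter regions (9.97%) did, and 11 of the 44 were wider than the overall median. The 2533 bp region over the start of Rpl7 was assigned to Rdh10 and is not among the 44. Mitochondrial ribosomal protein promoters had a median of 1046 bp (n = 45), biogenesis genes 1156 bp (n = 14) and the TOP mRNA genes 1323 bp (n = 14). The small and large subunit genes had medians of 1071 bp (n = 16) and 1115 bp (n = 26).

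**Figure D4:**
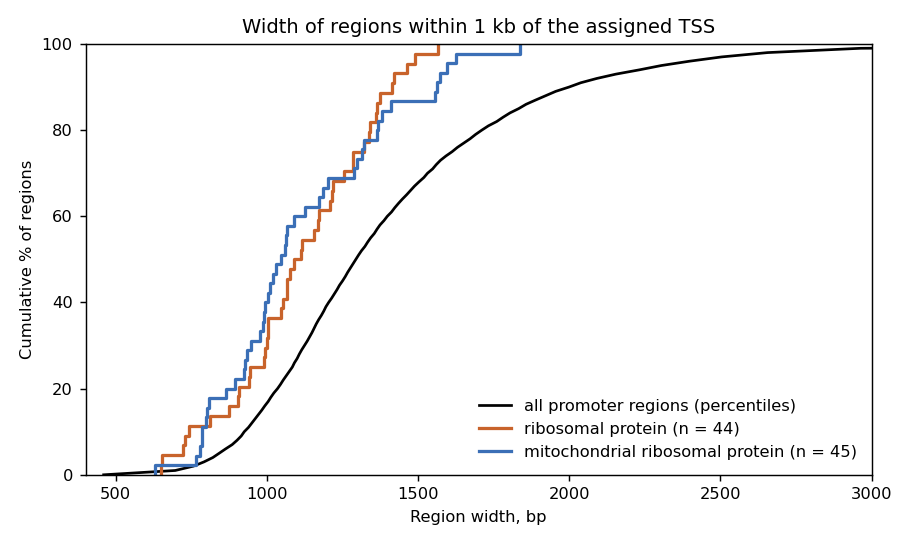
Cumulative percent of promoter regions (center within 1 kb of the assigned TSS) up to a given width in bp, for ribosomal protein genes (n = 44), mitochondrial ribosomal protein genes (n = 45) and all promoter regions. The ribosomal protein curve ends at 1565 bp, while 9.97% of all promoter regions are 2000 bp or wider.

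The widest of the 44 promoter regions was that of Rpl38 (1565 bp), a large subunit gene known for its role in the translation of Hox mRNAs. It was followed by Rpl10 (1490 bp), Rps19 (1462 bp), Rpl30 (1420 bp) and Rps20 (1412 bp). The narrowest were those of Rpl13 (650 bp), Rplp0 (654 bp), the X-linked Rps4x (724 bp), its paralog Rps4l (729 bp) and Rps24 (741 bp). Another coding gene's start was inside 3 of the 44 regions, namely Iqcg in that of Rpl35a (1117 bp), Lias in that of Rpl9 (1169 bp) and 1700034F02Rik in that of Rps27a (1322 bp). The 41 regions without one had a median width of 1077 bp. The share of all promoter regions that hold the start of another coding gene is not given here.

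The centers of these regions lay more often upstream of the TSS than those of promoters in general. The median distance from the TSS to the center was -50 bp (interval of the median -116 to -2 bp), beside 30 bp (26 to 35 bp) for all promoter regions. The center was upstream in 29 of the 44 regions (65.9%, interval 51.1 to 78.1%), beside 42.3% of all promoter regions and 40.0% of 45 mitochondrial ribosomal protein promoters. For biogenesis genes the share was 57.1% (n = 14, interval 32.6 to 78.6%), and for the TOP mRNA genes 28.6% (n = 14, interval 11.7 to 54.6%). The intervals of both lists overlap that of the ribosomal protein genes. On the upstream side the regions reached a median of 591.5 bp (540.0 to 692 bp), beside 610.0 bp for all promoters. On the downstream side, in the gene body, they reached 504.75 bp (463 to 559 bp), beside 662 bp. Measured from the representative GENCODE start, an alternative chosen after seeing the data, 29 of the 44 centers were again upstream, with a median of -28 bp, beside 39.7% of promoter regions in general with a median of 46 bp.

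**Figure D5:**
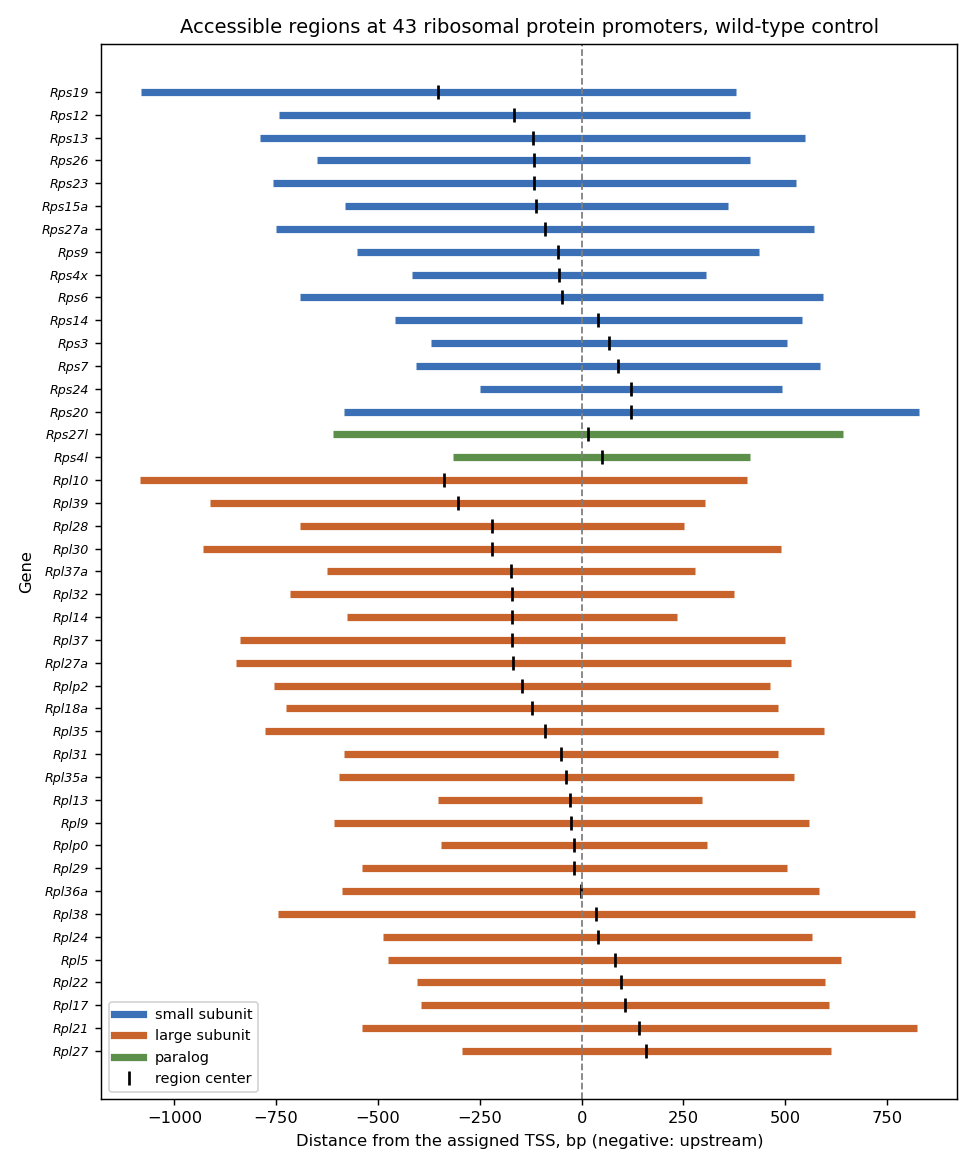
Extent of 43 of the 44 ribosomal protein promoter regions relative to the assigned TSS, in bp, with the center as a tick, ordered by center within the small subunit, the paralogs and the large subunit. All bars cross the TSS, and 29 of the 43 centers lie to the left of it.

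The 3 regions with the center farthest upstream were those of Rps19 (352 bp), Rpl10 (339 bp) and Rpl39 (304 bp). In Rps19 the region ran from 1082.5 bp upstream to 378.5 bp downstream of the TSS. Farthest downstream were the centers of Rpl27 (159 bp), Rpl21 (142 bp) and Rps20 (122 bp). These distances are from the assigned TSS and depend on which start was assigned. The annotated start of the same gene nearest to the center was 9 bp away in Rps19, 335 bp in Rpl10 and 124 bp in Rpl39. It was 34 bp away in Rpl27, 114 bp in Rpl21 and 45 bp in Rps20. The region of Rps24 had the shortest part upstream of the TSS, 249 bp.

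Promoter regions of ribosomal protein genes spanned 3.83 to 8.15 CpG per 100 bp. The 9083 promoter regions of all genes spanned 0 to 16.2, but such a range widens with the number of regions. The median was 6.25 CpG per 100 bp (quartiles 5.70 and 7.37, interval of the median 5.87 to 6.78) and 56.7% GC. All promoter regions had a median of 5.93 CpG per 100 bp (quartiles 4.50 and 7.48) and 58.1% GC. The highest CpG frequencies included those of Rps7 (8.15 per 100 bp) and Rps6 (8.01). The lowest 3 were all on X, in Rpl10 (3.83), Rpl39 (4.11) and Rps4x (4.14). The remaining X-linked region, that of Rpl36a, had 4.43 CpG per 100 bp, a width of 1173 bp and its center 2 bp from the TSS. Of the paralogs, Rps27l, a target of p53, had a region of 1254 bp centered 16 bp downstream of its TSS with 6.78 CpG per 100 bp, and Rps4l had 7.68.

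Repeated sequence was more common in these regions than in other promoters. The median was 6.11% of 31-mers occurring more than once in the genome, beside 0% in 455 promoter regions taken at every 20th place in the list. Values reached 39.6% in Rpl37a and 30.0% in Rpl24. With 50-mers the median was 1.47%. No mapping quality filter is stated for the libraries, and the part of repeated sequence in the calling of these regions was not tested.

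The 8 regions beyond 1 kb were assigned to 8 genes, of which Rps15a, Rps23 and Rps24 also had an assigned promoter region. The others, among them Rps28, Rps29, Rpl34 and Rpl10l, had none assigned, though the start of Rpl34 lay in the region of Rpl34-ps1. The closest to its gene was that of Rps28 (chr17:33953848-33955419, 1572 bp), centered 6810 bp downstream of the TSS in an exon of Kank3, with 7.76 CpG per 100 bp. The second region of Rps15a (1276 bp) lay 13117 bp downstream, between genes. Other distances were 55032 bp upstream for Rpl10l (857 bp wide, no CpG), 88545 bp upstream for Rpl34 (850 bp), 116358 bp downstream for the second region of Rps23 (752 bp, in an intron of Atg10), 288858 bp downstream for that of Rps24 (1106 bp) and 695907 bp downstream for Rps29 (975 bp). The regions assigned to Rps28 (Kank3, 1503 bp), Rpl34 (SNORA61, 52133 bp), Rps24 (Gm10398, 130139 bp) and Rps29 (an rRNA entry, 137691 bp) were nearer to the annotated start of another gene, so the symbol marks the assignment and not a measured link to the gene. Apart from Rps28, the distal regions had between 0 and 3.80 CpG per 100 bp, below each of the 44 promoter regions.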

How the data were processed

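ATAC-Seq was performed on pharyngeal mesoderm and hearts in 9 libraries, grouped by the genotype in their labels, with 3 per group. The file used held the wild-type control only. According to the study's methods, read pairs were aligned by the authors to the mm9 genome using bowtie2. They removed unmapped and secondary alignments with SAMtools and duplicates with Picard 1.136, called peaks in each library with MACS14, removed blacklisted peaks, and used bedtools 2.15 to keep those that replicates shared by 1 bp or more. The deposited values are region start and end, which are positions in bp, and the distance (bp) between its center and the TSS of the assigned gene, signed by strand and treated here as a score. How genes were assigned is not given for these regions in the sources used here. Peak edges follow the extension of reads in MACS14, and width also depends on depth, which is unknown.

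Identical regions were counted once, and positions were read as 1-based and closed. No column of values was left unmapped (0 columns). Members follow the symbol rule given above, and coverage was measured over 79 listed genes. The members and the lists were chosen with earlier results of these data known. Starts and sequence were taken from GENCODE and NCBIM37. Where the gene has several starts, the representative one was the protein-coding start with most transcript starts within 100 bp. Rpl41 was placed by a single exact match of its RefSeq promoter. Genes of the large background (21027) had a curated RefSeq transcript in the GRCm38.p6 gene table, which was used for names and gene types.

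No test was made, since the list has no value per library. Shares have 95% Wilson intervals, and medians have intervals from order statistics. The genes named are the 5 widest and 5 narrowest promoter regions, all distal, X-linked and paralogous members, genes with several regions, the 3 extremes of position and of CpG frequency, and listed genes without a region. Some genes this rule would name are not reported here and remain in the counts. The helper functions were tested on simulated data. Python 3.11.15, numpy 2.4.6, pandas 2.3.3, scipy 1.17.1, pysam 0.24.0 and numba 0.67.0 were used. Alternatives changed the regions, windows, starts, members, strands and word length.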

Additional observations from a re-analysis of the deposited data

How the results depend on the processing

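No paired analysis was possible because the only list used holds regions shared by the 3 wild-type libraries and carries no replicate values. For the same reason no library could be left out. Of 48 alternatives, 31 stayed within the interval of the value reported (for the count of regions, within 1.5 times it) and 17 moved beyond it. Keeping only regions of 1123 bp or more, the median width of the whole list, left 22 ribosomal protein regions. An assigned region then remained for 26.6% of the 79 genes, one within 1 kb for 24.1% and a start inside a region for 30.4%. The median center was at -118 bp. This alternative removes the narrower regions by construction. Its cutoff lies above the median width of ribosomal protein promoter regions (1102 bp) and below that of all promoter regions (1294 bp). The shares of coding genes under this cutoff are not given here. Whether coverage stays above that of coding genes in general was therefore not shown. In 500 bp centered on the TSS, the median GC content was 60.3% and CpG frequency 8.10 per 100 bp. The share of TOP-like starts moved most: 3.80% for a run beginning exactly at the start (all coding promoters 2.04%), 16.5% with at least 6 pyrimidines after the C (6.16%), 58.2% within 15 bases (40.7%), and, chosen after seeing the data, 93.7% within 50 bases (76.9%) and 44.1% with RefSeq promoters (18.8%). On the gene strand alone, AAGATGGC was present in 3.80% of the 79 promoters (all coding promoters 2.17%), GGGCGG in 29.1% (29.2%) and CCAAT in 20.3% (21.5%), and GCGCATGC in 1.27% (2.48%) from 100 bases before to 50 after the start. With 50-mers the median of repeated sequence was 1.47%. Using the representative start alone, also chosen after seeing the data, left 60.8% of the 79 genes with a start inside a region. The missing depth limits what the absence of a region can show.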

Other observations

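Host genes of snoRNAs, the small RNAs that guide modification of rRNA, also appeared in the list. Of 17 genes named Snhg (snoRNA host genes) in the gene table, 8 had a region, a share near the 49.3% of coding genes, and in 7 of them (Snhg5, Snhg6, Snhg9, Snhg11, Snhg15, Snhg17 and Snhg18) it was centered within 1 kb of the TSS, with widths from 957 bp in Snhg11 to 1409 bp in Snhg5. The region of Snhg7 was centered 6843 bp upstream. Gas5, a snoRNA host gene whose RNA has a TOP start, had a region of 1772 bp centered 388 bp upstream of its TSS. It was wider than each of the 44 promoter regions assigned to ribosomal protein genes by the symbol rule. Of the genes named as ribosomal protein pseudogenes, Rplp2-ps1 had a region (chr12:76717041-76718358, 1318 bp), centered 15037 bp downstream of its assigned TSS, and Rpl34-ps1 had the region over the start of Rpl34. Among the 79 ribosomal protein genes themselves, 30 contained an annotated snoRNA on the same strand. The share of all coding genes that contain one is not given here.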
